A study of Sus scrofa with 6 samples.

Results

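The S100 proteins and calretinin (CALB2) were followed in the cerebral cortex of pig embryos. All probe sets named only by CALB2 or by a symbol that begins with S100A or S100B were taken from the Affymetrix Pig Genome Array, which reads a transcript with several short probes. They are 12 of the 23999 probe sets that are not controls, and they stand for 11 genes. S100A1, S100A14 and CALB2 were chosen by their higher signal at E80 in the same 6 arrays, so their differences are described here and not tested. The other 9 probe sets, of 8 genes, came in by their symbol alone. Both probe sets of S100A6 list this symbol for 2 gene identifiers and were kept. Of the 16 S100A and S100B genes in the RefSeq gene table of the pig, 10 had such a probe set. A further 4 probe sets that name S100A16 together with ATPAF2 were left out.

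S100 proteins are small acidic proteins that bind calcium through EF-hands, a helix-loop-helix fold. They mostly act as dimers that change shape on binding and then grip a target protein, and several are also secreted. Most of their genes lie side by side in a single cluster, while S100B lies elsewhere. In the brain S100B is widely used as a marker of astrocytes. Calretinin is an EF-hand protein as well, but it mainly buffers calcium, and in the cortex it marks a class of inhibitory interneurons and the early Cajal-Retzius cells.

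The samples were cortical total RNA of 3 embryos at embryonic day 60 (E60), when the brain surface is still smooth, and of 3 at embryonic day 80 (E80), when the first folds are present, with 1 array per embryo. No treatment or genetic change is given for either group. The labels speak of litter mates without tying an array to a litter, so litter and day cannot be told apart, and the p-values measure the spread between these arrays. The signals were made by MAS5 and are linear, and the number of arrays limits their precision. The mean of each array with 2% trimmed at each end was 150.0, and the median signal of the tested probe sets was 60.9 to 64.8 at E60 and 55.6 to 59.5 at E80. Between arrays of the same day Spearman's rho over probe sets, which are not independent, was 0.968 to 0.984, and between arrays of different days it was 0.964 to 0.972, so the ranges overlapped. E80 array 3 stood apart in the choroid plexus gene TTR, with a signal of 4475 against 6.25 and 15.1 on the other E80 arrays and 1.47 to 3.70 at E60. Of the interneuron genes, GAD1 had signals of 794 to 1079 and SST of 711 to 1159 over all 6 arrays. Of 14 genes of excitatory cortical neurons only NEUROD1 was measured. Its 2 probe sets had signals of 60.2 to 217 and of 0.415 to 5.34. The label of cortex was not tested with these genes. Whole tissue was measured, so fewer cells of a type and less RNA per cell cannot be told apart.

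S100A1, a calcium sensor best known from heart muscle and also made in the brain, had the largest difference of the 12 probe sets over all 6 arrays, though not in every setting. Its signal was 36.4, 16.6 and 42.4 on E60 arrays 1, 2 and 3 and 76.1, 107 and 202 on E80 arrays 1, 2 and 3. The days did not overlap, and the arrays of each day were far apart among themselves, with the highest over the lowest at 2.56 at E60 and 2.65 at E80. The means were 31.8 ± 13.5 (SD, n = 3) and 128 ± 65.4 (SD, n = 3), so E80 minus E60 was 2.00 on the log2 scale (standard error 0.44), or 4.00-fold. Without E80 array 3 the log2 difference was 1.61 (standard error 0.42), and with 32 added to each signal, which shrinks the changes of dim probe sets, it was 1.27. In both settings, and without E60 array 2 (1.59 against 1.77), it was smaller than that of S100A14.

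S100A14, an S100 protein known mainly from epithelia, had signals of 63.0, 46.9 and 53.9 at E60 and 163, 189 and 254 at E80. The lowest E80 array was above the highest E60 array, and the arrays of a day were closer together than for S100A1. The means were 54.6 ± 8.07 (SD, n = 3) and 202 ± 46.7 (SD, n = 3), a log2 difference of 1.87 (standard error 0.20), or 3.66-fold. Without E80 array 3 the difference was 1.695, and with 32 added to each signal it was 1.42. None of the 8 probe sets of 6 measured epithelial genes passed the test, which is described below. All 8 were below the median signal of all probe sets, which limits what they can show. A lower mean log2 signal at E80 was found in 7 of the 8, and in 13358 of all 23999. Their summed signal was 156 to 261 at E60 and 122 to 167 at E80.

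CALB2 had signals of 329, 308 and 212 at E60 and 778, 567 and 841 at E80, again with no overlap. The means were 283 ± 62.2 (SD, n = 3) and 729 ± 144 (SD, n = 3), a log2 difference of 1.37 (standard error 0.20), or 2.59-fold, and 1.26 without E80 array 3. E80 array 2 was the lowest of its day for CALB2, as for S100B, S100A11 and both sets of S100A6, whereas E80 array 1 was the lowest for S100A1 and S100A14.

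**Figure D1:**
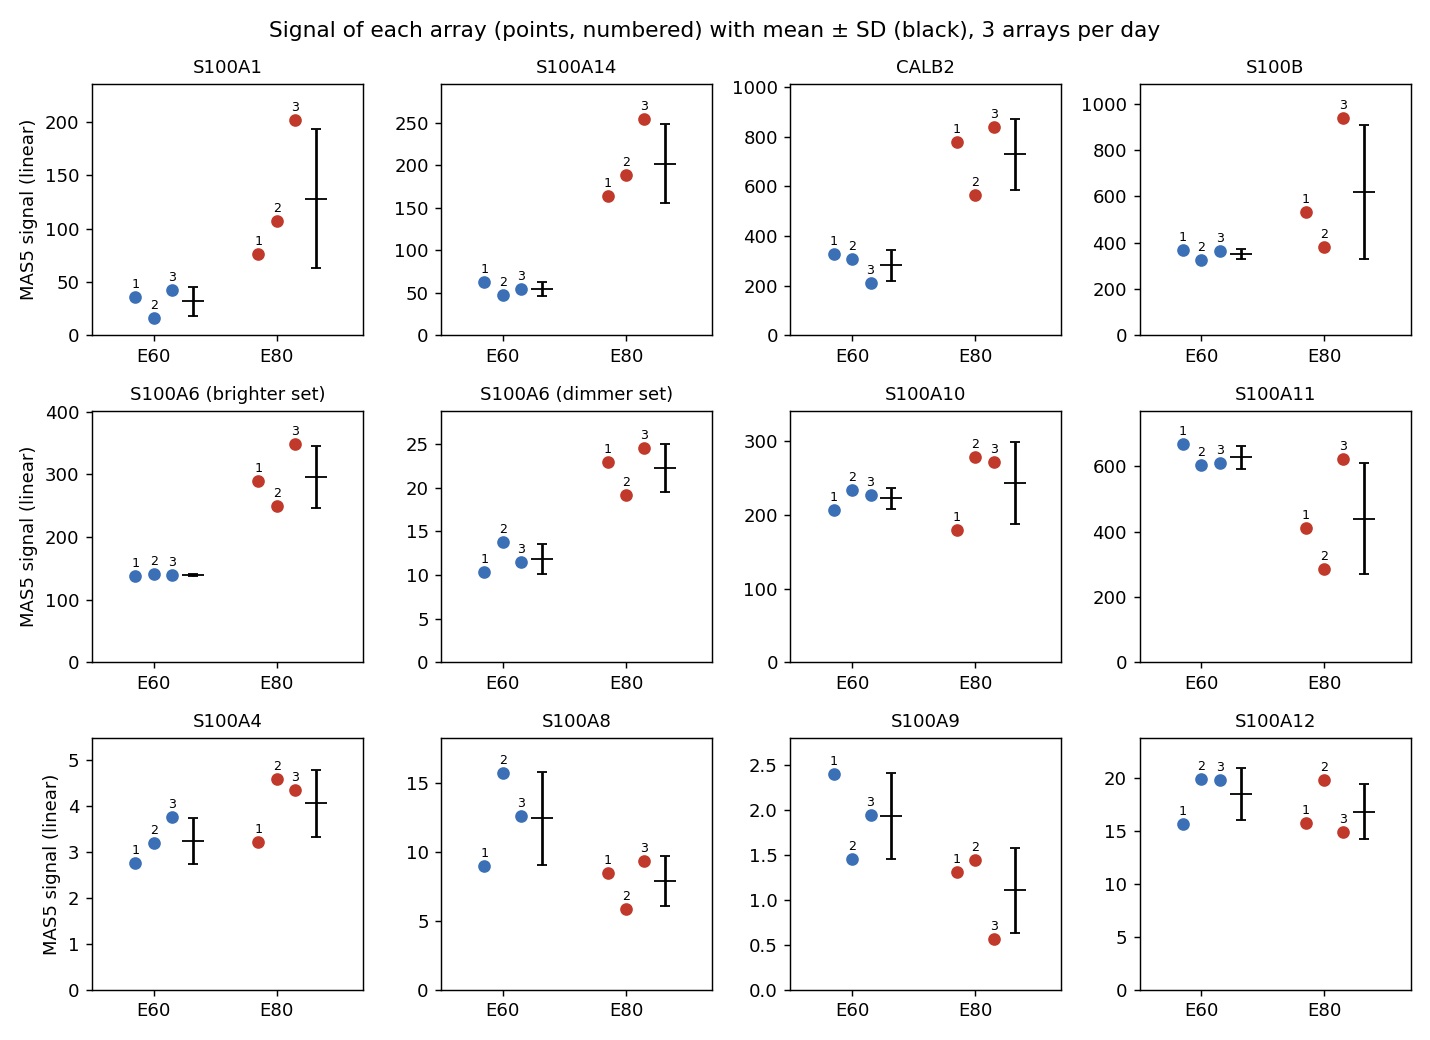
MAS5 signal (linear vertical axes from 0, each with its own range) of the 12 probe sets on the 3 arrays of E60 (blue) and the 3 arrays of E80 (red), with the array number at each point and mean ± SD in black. S100A1, S100A14, CALB2, S100B and both sets of S100A6 have each E80 point above each E60 point, and E80 array 3 is the highest point of its day in 8 of the 12 panels.

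For the genes that came in by symbol, E80 was compared with E60 by limma on log2 signals over all 23999 probe sets, with Benjamini-Hochberg adjustment and a threshold of 0.05. Of their 9 probe sets 1 passed, the brighter set of S100A6, while 1.95% of all probe sets passed in either direction and 0.933% with a higher signal at E80. The median log2 difference of the 9 was 0.10, against -0.05 over all probe sets, with 5 higher and 4 lower at E80. In 3 of the 9 all E80 arrays were above all E60 arrays, against 9.25% of all probe sets. These 3 are S100B and both sets of S100A6, so the count holds that gene more than once. In 1 of the 9, S100A9, all E80 arrays were below, against 14.4%. No S100 probe set passed with a lower signal at E80, where 1.01% of all did. Over all 12 probe sets 3 passed, but 2 of these were S100A14 and CALB2, and the 2 probe sets at least 3-fold apart with no overlap were S100A1 and S100A14, against 1.21% of all. These genes were chosen for the difference, and nothing is read from the counts. The calls rest on few arrays. Without E60 array 1, E60 array 2 or E80 array 1, limma called 1 of the 23999 probe sets, which was lower at E80, with 3133 to 3299 under an unadjusted p of 0.05. Centring the arrays on their medians adds 0.12 to each log2 difference.

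S100A6 (calcyclin), which is abundant in dividing cells and in some astrocytes, rose on its brighter probe set. The signals there were 139, 141 and 139 at E60 and 290, 249 and 348 at E80. The E60 arrays were nearly equal, and each E80 array was well above them. The means were 140 ± 1.27 (SD, n = 3) and 296 ± 49.7 (SD, n = 3), and the log2 difference was 1.07 (standard error 0.14, adjusted p = 0.0167 from limma), or 2.10-fold. The dimmer probe set went the same way, with signals of 10.3, 13.7 and 11.4 at E60 and 23.0, 19.1 and 24.5 at E80, and did not pass (log2 difference 0.91, standard error 0.30, adjusted p = 0.162). On the brighter set the call was lost without E60 array 1 (adjusted p = 0.0757), without E60 array 2 (0.0903) and without E80 array 1 (0.0794), while the difference stayed between 1.06 and 1.08 in these settings. It was also lost without the intensity trend in the variance (adjusted p = 0.125). Without E80 array 3 the difference was 0.94 (adjusted p = 0.0364).

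S100B, the astrocyte protein, had signals of 367, 326 and 363 at E60 and 534, 382 and 939 at E80. All E80 arrays were above all E60 arrays, but E80 array 2 only narrowly, and E80 array 3 was 2.05 times the mean of the other E80 arrays. The log2 difference was 0.71 (standard error 0.28, 95% confidence interval 0.07 to 1.35), and it did not pass the test (adjusted p = 0.230). Without E80 array 3 it was 0.36 (standard error 0.16, adjusted p = 0.318). The astrocyte gene GFAP had signals of 205, 179 and 210 at E60 on its brightest probe set and 456, 678 and 1258 at E80, so that its lowest E80 array was array 1 and that of S100B was array 2. Of 23 probe sets of 13 measured astrocyte genes (S100B not among them) 6 rose and none fell. Of all probe sets 0.933% rose and 1.01% fell. The 6 belong to GFAP, ALDOC, APOE, NDRG2 and CLU. Of these genes, GFAP and APOE were lowest of E80 on array 1 and NDRG2 on array 3. ALDOC and CLU were lowest on array 2, as S100B was. CLU had signals of 2797, 2633 and 3369 on E80 arrays 1, 2 and 3, the array order of S100B. The astrocyte list was written with earlier results of these data known, so nothing is read from the count of 6. The summed signal of the 23 was 8815 to 9675 at E60 and 11848 to 15184 at E80. The summed signal of the oligodendrocyte lineage genes (9 of 15 measured, 19 probe sets, none past the test) was 957 to 1220 at E60. On E80 arrays 1, 2 and 3 it was 1466, 1177 and 2019, again the array order of S100B and of CLU. Of these 19 probe sets 16 were below the median signal. The part of the genes of either list in the values of S100B was not tested.

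S100A10 and S100A11, which bind the annexins ANXA2 and ANXA1 at the cell membrane, did not pass the test. S100A10 had signals of 207, 234 and 226 at E60 and 179, 279 and 271 at E80. E80 array 1 was the lowest of all 6 and E80 array 2 the highest, so the days overlapped. The log2 difference was 0.10 (standard error 0.17, adjusted p = 0.809), with a 95% confidence interval of -0.30 to 0.50. S100A11 had signals of 667, 602 and 610.4 at E60 and 410.4, 286 and 622 at E80. E80 arrays 1 and 2 were below all E60 arrays and E80 array 3 lay among them. The log2 difference was -0.58 (standard error 0.24, 95% confidence interval -1.14 to -0.03, adjusted p = 0.256). Without E80 array 3 it was -0.87 (adjusted p = 0.0623), and without E80 array 2 it was -0.31 (adjusted p = 0.402).

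None of the partners and receptors of S100 proteins passed. Of 16 listed genes 12 were measured with 24 probe sets, of which 4 had an unadjusted p below 0.05, as had 4308 of all 23999. Their median log2 difference was 0.14, against -0.05 over all probe sets. ANXA1 had signals of 115, 111 and 93.5 at E60 and 125, 184 and 327 at E80, a log2 difference of 0.89 (standard error 0.31, adjusted p = 0.182). ANXA2 ranged from 174 to 334 at E60 and from 103 to 294 at E80, with overlap (log2 difference -0.43, adjusted p = 0.604). The cardiac and neuronal calcium release channel RYR2 had a log2 difference of 0.52 on its brightest probe set (adjusted p = 0.142), the kinase STK38 one of -0.36 (adjusted p = 0.169) and the calcium pump ATP2A2 one of 0.23 (adjusted p = 0.231). AGER, the receptor for secreted S100 proteins, was dim, with signals of 0.872 to 10.5 over its 2 probe sets.

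S100A8, S100A9 and S100A12, the calgranulins of neutrophils and monocytes, and S100A4, which is known from motile cells, were all dim. The signals of S100A8 were 8.95, 15.7 and 12.6 at E60 and 8.42, 5.84 and 9.31 at E80, and those of S100A12 were 15.7, 19.95 and 19.87 at E60 and 15.8, 19.8 and 14.96 at E80. Both overlapped between the days. S100A9 had signals of 2.40, 1.45 and 1.95 at E60 and 1.32, 1.44 and 0.565 at E80, where the E80 arrays were all lower, by as little as the gap from 1.44 to 1.45. S100A4 ran from 2.76 to 3.76 at E60 and from 3.23 to 4.60 at E80. Their log2 differences were -0.65 for S100A8 (standard error 0.40), -0.89 for S100A9 (standard error 0.66), -0.14 for S100A12 (standard error 0.29) and 0.32 for S100A4 (standard error 0.48), with adjusted p from 0.442 to 0.855. The mean signals of these 4 probe sets stood between percentiles 2.26 and 27.1 of all probe sets. Whether such low signals are above background was not analysed here, since detection calls of single probe sets were not used. The other neutrophil genes were dim too, with a summed signal of 44.6 to 64.1 at E60 and 48.8 to 66.4 at E80 over 6 probe sets, and none of them passed, with 2 of the 6 under an unadjusted p of 0.05 against 4308 of all 23999. S100G, which the choice by S100A and S100B leaves out, had signals of 0.666 to 25.6 over its 2 probe sets, with log2 differences of -0.65 and -0.57 and adjusted p of 0.423 and 0.724.

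**Figure D2:**
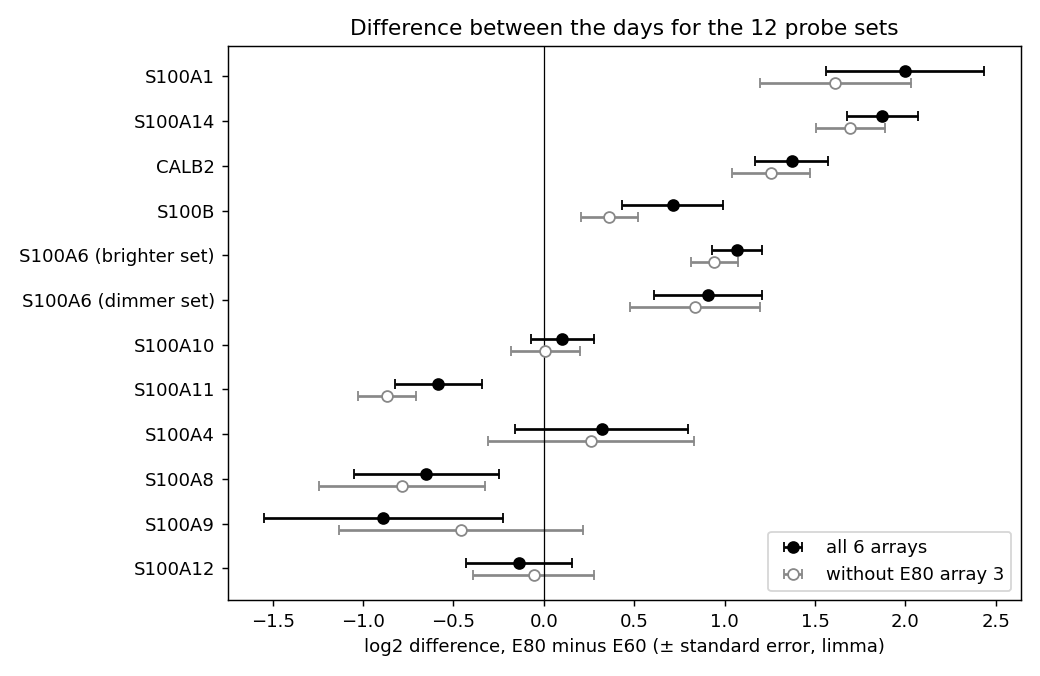
Log2 difference of E80 minus E60 (horizontal axis) with its standard error from limma for the 12 probe sets, over all 6 arrays (black) and without E80 array 3 (open grey). S100A1 lies at 2.00 and 1.61, S100B at 0.71 and 0.36 and S100A11 at -0.58 and -0.87, while the S100A6 sets lie at 1.07 and 0.94 and at 0.91 and 0.84.

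E80 array 3 had the highest signal of its day for 8 of the 12 probe sets. These include S100A1, S100A14 and CALB2, which were chosen for a high signal at E80, and 5 of the 9 that came in by symbol. Over all probe sets it was the highest of its day in 34.2%. E80 array 1 was the highest for none of the 12. The ratio of E80 array 3 to the mean of the other E80 arrays was 2.20 for S100A1, 2.05 for S100B, 1.79 for S100A11, 1.44 for S100A14, 1.29 for the brighter set of S100A6 and 1.25 for CALB2. The signals of S100A11, S100B and the brighter set of S100A6 moved together within the days. Pearson correlations between their deviations from the day means over the 6 arrays were 0.977 to 0.988, the highest of all pairs of members. These points share the arrays, and E80 array 3 is the highest of its day in each. The E60 arrays differed little on these sets, so the values rest mainly on the E80 arrays. With the day means left in, S100A11 had r = -0.46 with that S100A6 set and 0.09 with S100B, and the last pair had 0.84. S100A1 and S100A14 had a correlation of 0.883 between their deviations from the day means.

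On the same array markers of other cell types were high. The summed signal of the choroid plexus genes (6 of 12 measured, 9 probe sets) was 5569 on E80 array 3, against 129 and 222 on the other E80 arrays and 103 to 198 at E60, and 8 of the 9 probe sets had their highest E80 signal there. The microglial genes (6 of 11 measured) had their highest E80 signal there on all 7 probe sets, with a summed signal of 793 against 291 and 367 on the other E80 arrays and 246 to 360 at E60. AIF1, a marker of microglia, had a signal of 176 on E80 array 3, against 40.7 to 64.6 on the other 5. In contrast, the summed signal of the meningeal and fibroblast genes was lowest there, at 1421 against 1998 to 2911 at E60. It was 1620.5 on E80 array 1, also below all E60 arrays, and 2338 on E80 array 2. The part of these cells in the S100 values was not tested. The differences of S100A14, CALB2 and both sets of S100A6 without this array were 1.695, 1.26, 0.94 and 0.84, the last value belonging to the dimmer set.

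**Figure D3:**
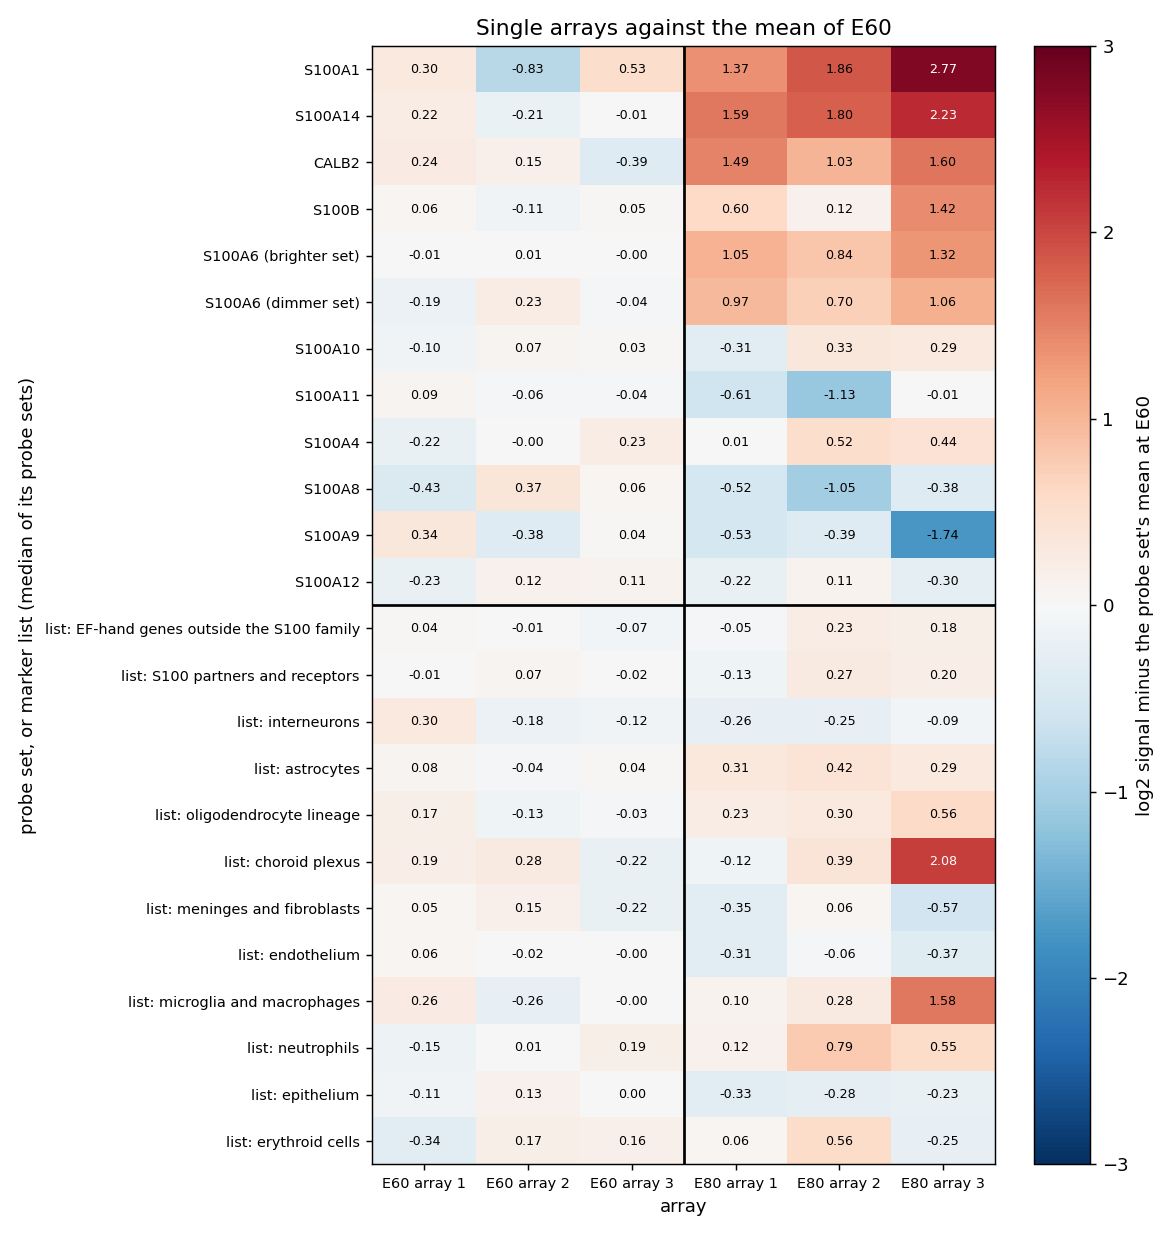
Log2 signal on each of the 6 arrays (columns) minus the mean of E60, for the 12 probe sets (upper rows) and as the median over the probe sets of each gene list with at least 4 of them (lower rows), in red where higher and blue where lower. S100A1 reaches 2.77 and S100B 1.42 on E80 array 3, where the choroid plexus list reaches 2.08 and the microglial list 1.58, while the interneuron list lies between -0.26 and 0.30 on all 6 arrays.

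Calretinin was set beside genes of interneurons in general and of Cajal-Retzius cells. The interneuron list is not limited to the class that calretinin marks, so it does not show how that class behaved. None of the 12 probe sets of 7 measured interneuron genes (22 listed) passed the test. Of the 12, 2 had an unadjusted p below 0.05, as had 4308 of all 23999. The median log2 difference of the 12 was -0.38, against -0.05 over all probe sets. A lower mean log2 signal at E80 was found in 9 of the 12, of which 4 belong to NR2F2, and in 13358 of all 23999. The median signal of all probe sets was above 5 of the 12. Summed over the 12, the signal was 3037 to 3978 at E60 and 2930 to 3441 at E80. For the GABA synthesis gene GAD1 the log2 difference was 0.12 (adjusted p = 0.662), and for the neuropeptide somatostatin (SST) it was 0.24 (adjusted p = 0.499). The neuropeptide gene NPY had a difference of -0.40 (adjusted p = 0.155) on its brighter probe set. All 4 probe sets of NR2F2, a transcription factor of interneurons from the caudal ganglionic eminence, had lower mean log2 signals at E80 (-0.86 to -0.45), and none passed. SCGN, another EF-hand buffer of interneurons, had a difference of 0.43 (adjusted p = 0.406). Of 7 Cajal-Retzius genes LHX1 alone was measured, and its signals were 20.7 to 26.1 at E60 and 8.57 to 23.1 at E80.

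The genes of other EF-hand proteins went both ways. Of 44 listed 24 were measured with 37 probe sets, of which 2 rose and 1 fell, where 1.95% of all probe sets were called. Their median log2 difference was 0.16, against -0.05 over all probe sets. VSNL1, a neuronal calcium sensor, had signals of 932, 653 and 811 at E60 and 1960.0, 2168 and 1731 at E80 and rose by 1.30 (standard error 0.14, adjusted p = 0.0159). Here the E80 array 3 was the lowest of its day, unlike for CALB2 and the bright S100 genes. NCALD (neurocalcin delta), of the same family of sensors, rose by 0.76 on one probe set (adjusted p = 0.0449), and its other 3 sets had differences of 0.19 to 0.43 and did not pass. For the calmodulin gene CALM3 the probe sets disagreed. On 4 of the 6 all E80 arrays were below all E60 arrays, with 1 of them past the test (log2 difference -0.50, adjusted p = 0.0298), and on the other two all were above. Calls for all 3 genes were lost without E60 array 1, E60 array 2 or E80 array 1. The call of NCALD was also lost without each of the other arrays and with 32 added to each signal. The lower call of CALM3 was also lost without E60 array 3 or E80 array 3 and after median centring. Without E60 array 3 a probe set of CALM3 was called higher at E80 instead. Among the rest, CALM2 had a difference of 0.39 (adjusted p = 0.116), the potassium channel subunit KCNIP4 one of 0.53 (adjusted p = 0.129), sorcin (SRI) one of 0.44 (adjusted p = 0.148) and nucleobindin (NUCB1) one of 0.42 (adjusted p = 0.179).

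The S100 genes of the cluster on pig chromosome 4 had log2 differences of both signs along their order in RefSeq (assembly Sscrofa11.1). S100A1, S100A13, S100A14 and S100A16 lie next to each other at one end, and the measured genes of this end, S100A1 and S100A14, are those chosen for their higher signal at E80. The gene before them, CHTOP, which binds RNA, had a log2 difference of -0.16 (standard error 0.09, adjusted p = 0.399), and SNAPIN, a gene further on in the same direction, had one of 0.12 (adjusted p = 0.639). S100A4 and S100A6 follow in the middle, at 0.32 and, on its brighter set, 1.07. S100A8, S100A12 and S100A9 lie at the far end, at -0.65, -0.14 and -0.89, all dim and none past the test. The gene after them, PPGRP-S, a peptidoglycan recognition protein, had one of -0.23 (adjusted p = 0.673). S100A11 and S100A10 are neighbours elsewhere on the chromosome and had differences of -0.58 and 0.10. CALB2 lies on chromosome 6 next to CMTR2, whose 2 probe sets were dim and had differences of -0.34 and 0.85 (adjusted p = 0.562 and 0.541). The build behind the array is not given in the sources used here, so the table was used for gene order alone.

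**Figure D4:**
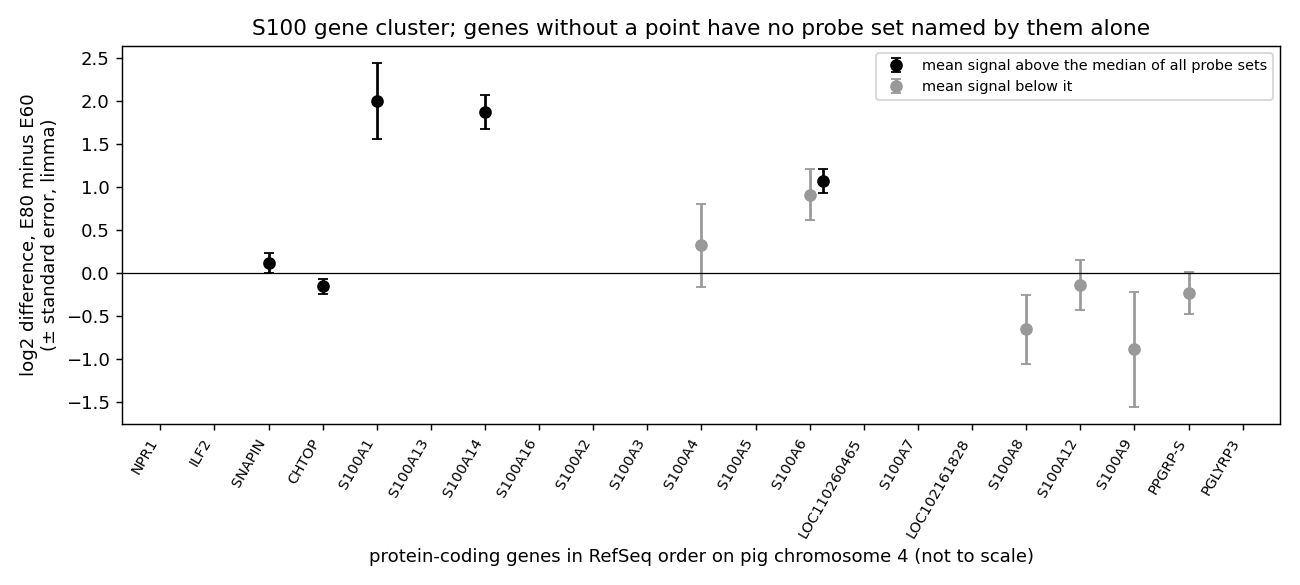
Log2 difference of E80 minus E60 (vertical axis) with its standard error from limma, for the genes of the S100 cluster in their RefSeq order (horizontal axis, not to scale). Black points are brighter than the median probe set and grey points are dimmer. S100A1 and S100A14 lie at 2.00 and 1.87, their neighbours CHTOP and SNAPIN at -0.16 and 0.12, and S100A8, S100A12 and S100A9 below 0.

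The genes whose signals were most like those of the chosen members were sought among 6118 probe sets with 1 symbol and a signal above the median, by Pearson's r of the log2 signals over the 6 arrays. The points fall into the days, so any gene that differs between them scores high, and r is given as a description. The size of a difference does not enter r. Among the genes named below, log2 differences of E80 minus E60 ran from 0.14 for NOTCH4 to 2.34 for RNASE1. ARHGAP5 and FKBP11, the first of their lists, had 0.30 and 0.24, against 2.00 for S100A1 and 1.87 for S100A14. The 5 probe sets most like S100A1 were those of ARHGAP5 (r = 0.981), NOTCH4 (0.976), GFAP (0.972), the glutamate transporter SLC1A2 (0.971) and FADS6 (0.966), and 109 of the 6118 had r above 0.9. On that probe set GFAP had signals of 70.0, 57.2 and 78.8 at E60 and 152, 218 and 368 at E80, which is the order of S100A1 on all 6 arrays. Those most like S100A14 were FKBP11 (0.996), the radial glia gene HOPX (0.991), the kinase PRKCZ (0.990), the ribonuclease RNASE1 (0.987) and ISG15 (0.985), and 205 had r above 0.9. RNASE1 had signals of 34.3 to 36.6 at E60 and 128, 156 and 283 at E80. Those most like CALB2 were PPP1R21 (0.987), the cholesterol synthesis enzyme HMGCS1 (0.977), the tetraspanins CD9 (0.976) and TSPAN2 (0.974) and the membrane skeleton protein ADD3 (0.974), and 165 had r above 0.9. Like CALB2, PPP1R21, HMGCS1, CD9 and TSPAN2 had their lowest E80 signal on array 2, where CD9 stood at 154 against 191 and 234. For S100A1 and S100A14 the lowest was array 1.

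**Figure D5:**
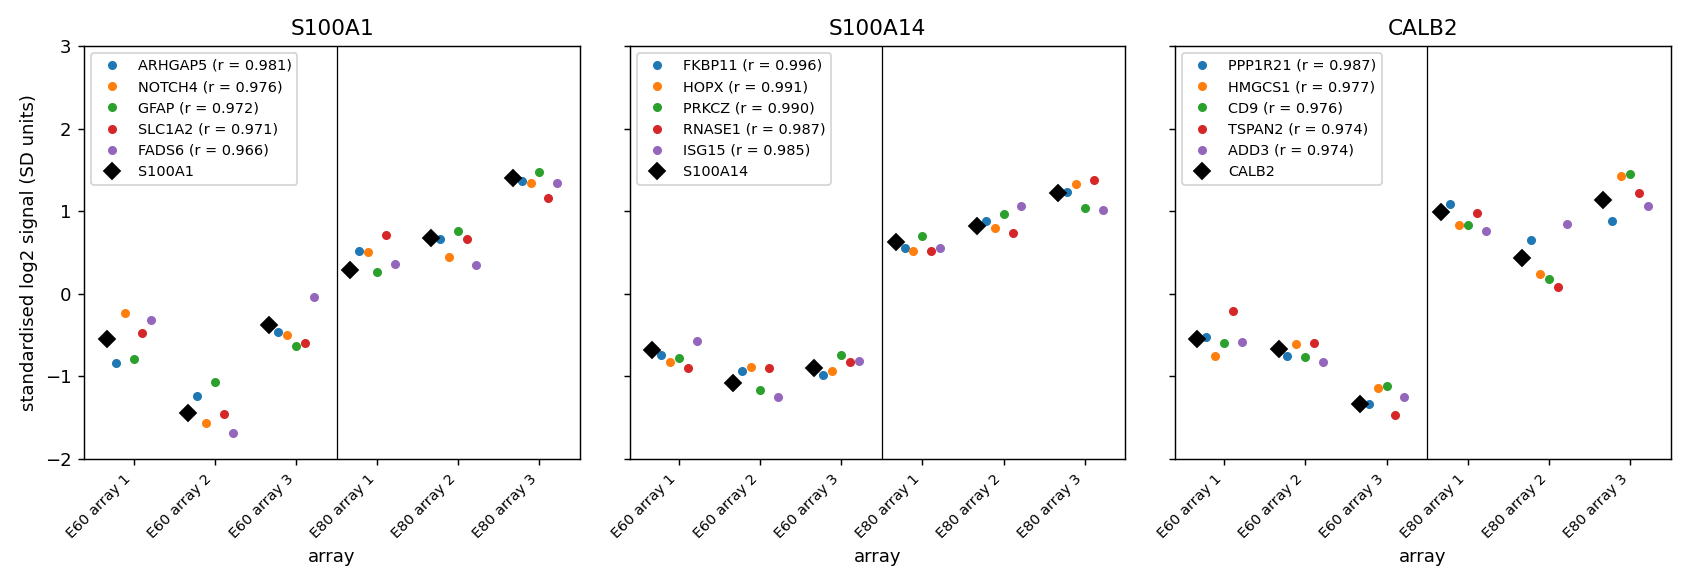
Log2 signal of S100A1, S100A14 and CALB2 (black diamonds) and of the 5 probe sets most like each (coloured points) on the 6 arrays, each centred on its mean and divided by its standard deviation (vertical axis). Points of one array are set side by side, and the vertical line parts E60 from E80. S100A1 is lowest on E60 array 2 and highest on E80 array 3, and CALB2 is lowest on E60 array 3.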

How the data were processed

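The deposited intensity values are MAS5 signals for each probe set, scaled by the authors to a common trimmed mean. No version of MAS5 is given in the sources used here. From these, log2 signals were taken with no pseudocount, and the 124 control probe sets of 24123 were left out. Symbols came from the platform's annotation, where 10110 probe sets have 1 symbol, 157 several and 13732 none. The days were compared in limma 3.58.1 (R 4.3.3), where lmFit was followed by eBayes with a variance trend on intensity, on the 6 arrays without covariates. The members and gene lists were chosen with earlier results of these data known. The text names each member, the listed genes that passed, up to 4 further members of the EF-hand and partner lists with the smallest adjusted p, the first markers of cell type lists, direct neighbours, and the 5 most alike probe sets. Genes of those lists named beyond this, such as AGER, ANXA2, NR2F2, NPY and AIF1, and SNAPIN were chosen after their values were seen. In a test on simulated data of this comparison over 23999 probe sets, limma found 98 of 100 changed 2-fold and 100 of 100 changed 3-fold, with 14 false calls among 212. The changes were put only into probe sets above the median signal. The noise was normal and independent, with the typical spread of probe sets of like intensity. The result therefore does not carry over to dim probe sets, to those that spread more, or to an array that stands apart. The alternatives were leaving out each array, a 3-fold rule with no overlap, a fit with no intensity trend or a robust one, the brightest 66% of probe sets, a pseudocount of 32, centring on medians, and quantile normalization.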

Additional observations from a re-analysis of the deposited data

How the results depend on the processing

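The count of all called probe sets was 467 (224 higher and 243 lower at E80), and 311 rose and 108 fell after median centring. It was 763 among the brightest 66% of probe sets, 0 without the intensity trend (3706 under an unadjusted p of 0.05), 291 by the 3-fold rule with no overlap, and 1 to 367 when 1 array was left out. Of the 12 probe sets of S100 genes and CALB2, 3 were called, 0 without the trend (5 under an unadjusted p of 0.05), and 0 to 3 when 1 array was left out, with 0 without E60 array 1, E60 array 2 or E80 array 1. Among the brightest 66%, S100A1 was called as well. With the S100A6 sets left out, an alternative chosen after seeing the data, 2 of 10 were called. These were S100A14 and CALB2, which like S100A1 were chosen for their difference, so nothing is read from their calls. No gene that came in by symbol was called there. Of the other EF-hand probe sets 3 were called, 5 among the brightest 66%, 0 without the trend (11 under an unadjusted p of 0.05), 0 by the 3-fold rule, and 0 to 2 when 1 array was left out. No partner or receptor was called in any setting run. S100A10 reversed to -0.011 without E80 array 2 and ranged up to 0.31 when 1 array was left out, while the other 11 probe sets kept their direction in each setting that held them. The brightest 66% did not hold S100A4, S100A8, S100A9, S100A12 or the dimmer set of S100A6. The cause of these moves was not tested. No paired analysis was possible because the labels give the arrays no numbers shared between the days. Dim signals limit S100A4, S100A8, S100A9, S100A12 and the dimmer set of S100A6, which were below the median signal.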
